A study of Mus musculus with 11 samples.

Results

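The genes described here are those of the epidermal growth factor (EGF) receptor system that were listed by symbol: the receptor Egfr, its partner receptor Erbb2, and the 6 ligands Areg, Ereg, Hbegf, Tgfa, Btc and Epgn. All 8 were found among the 24411 genes of the files, and all 8 passed the filter on low counts that left 14588 genes for testing. RNA was sequenced from the back skin of 11 mouse samples, in 2 groups that differ in the marrow the host received. The donors of that marrow were Pdgfra-Cre;tdTomato mice, whose femoral cells were sorted by tdTomato. Hosts of the 4 samples of the tdTomato-positive group received the cells that carried tdTomato, and hosts of the 7 samples of the tdTomato-negative group those that did not. All hosts were of the strain Tg(act-EGFP)Y01Osb, with an age given as 16 to 18 without a unit, and were irradiated with 10 Gy before the transfer into the tail vein. After 6 weeks of recovery all of them received MC903 on the back skin 6 times. MC903, or calcipotriol, is a vitamin D analog that causes a skin inflammation that serves to model atopic dermatitis. Skin was taken on day 14. Cre in the donors is driven by Pdgfra, a gene of mesenchymal cells, and the skin itself is the host's. The total RNA does not separate donor from host transcripts, and in such bulk tissue fewer cells of a type and less RNA per cell cannot be told apart. Skin without MC903 or without transplantation was not analysed here.

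EGFR is a receptor tyrosine kinase of basal keratinocytes and of the outer root sheath of the hair follicle. Its ligands are made as membrane-bound precursors that the metalloprotease ADAM17 and related sheddases release, and the bound receptor dimerizes with itself or with ERBB2 and signals through the RAS-ERK cascade. In skin the pathway drives keratinocyte proliferation, migration and wound closure and restrains terminal differentiation. Mice without Tgfa and mice with weakened Egfr both have wavy hair and whiskers.

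Library totals lay between 7190752 and 9749842 expected counts, with 7228968 to 9749842 in the tdTomato-positive and 7190752 to 8705435 in the tdTomato-negative group. Markers of basal keratinocytes summed to 10302 to 16566 TPM (a level scaled to transcript length and library size) in the tdTomato-positive and 6315 to 17044 TPM in the tdTomato-negative group, and none of these 7 genes was at 0 in all samples. The samples differed in their hair follicle transcripts. The 20 hair follicle markers, none of them at 0 in all samples, summed to 1831, 341, 600 and 9597 TPM in tdTomato-positive replicates 1 to 4. In tdTomato-negative replicates 1 to 7 they summed to 1835, 16373, 29104, 17451, 19784, 22080 and 221 TPM. Nothing in the labels ties each sample to a separate animal. The p-values therefore cover the spread between samples, which may be technical.

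Egfr lies on chromosome 11 of GRCm38.p6 (RefSeq) from 16752203 to 16913907 and Erbb2 on the same chromosome from 98412484 to 98437716. Tgfa lies on chromosome 6 from 86195038 to 86275744. There are 4 ligand genes that are neighbours: Epgn (91027517 to 91035212), Ereg (91074617 to 91093649), Areg (91139599 to 91148432) and Btc (91357261 to 91402994) stand within 375 kb of chromosome 5. The GENCODE annotation has no other protein-coding gene in that interval. The promoters of Areg and Epgn are shown because these genes of the cluster shared their highest sample. Ereg, which lies between them, did not share it, and Hbegf, which is outside the cluster, did. The promoters of Egfr and Tgfa are shown because both genes had their lowest values in the same samples. Each window is from RefSeq on GRCm38.p6 and runs from 250 bases before to 50 bases after a start of transcription. It is written 5′ to 3′ on the strand of the gene, which is the plus strand for all 4. For Areg, Epgn and Egfr this start is the first base of the gene as given above. The Tgfa window runs from 86194972 to 86195271, so its start lies inside the gene, downstream of the first base at 86195038. Capitals mark the motifs that were searched on both strands, so that CCGCCC is GGGCGG on the opposite strand. TATAAA is the core of the box that places the start of transcription, GGGCGG is bound by SP1 and related factors, and TGACGTCA is the cyclic AMP response element.
Areg, chr5:91139349-91139648: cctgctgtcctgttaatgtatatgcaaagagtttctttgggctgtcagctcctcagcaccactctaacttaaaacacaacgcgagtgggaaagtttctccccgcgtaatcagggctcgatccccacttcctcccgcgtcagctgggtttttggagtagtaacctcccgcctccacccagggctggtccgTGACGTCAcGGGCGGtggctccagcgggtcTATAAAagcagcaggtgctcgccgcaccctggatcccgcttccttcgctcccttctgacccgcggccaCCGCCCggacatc
Epgn, chr5:91027267-91027566: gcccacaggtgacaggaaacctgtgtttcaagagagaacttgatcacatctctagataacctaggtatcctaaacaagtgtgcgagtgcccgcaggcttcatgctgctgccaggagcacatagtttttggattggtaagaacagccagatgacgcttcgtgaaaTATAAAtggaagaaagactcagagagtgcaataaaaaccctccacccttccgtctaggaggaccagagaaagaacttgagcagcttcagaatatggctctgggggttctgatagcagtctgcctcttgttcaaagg
Egfr, chr11:16751953-16752252: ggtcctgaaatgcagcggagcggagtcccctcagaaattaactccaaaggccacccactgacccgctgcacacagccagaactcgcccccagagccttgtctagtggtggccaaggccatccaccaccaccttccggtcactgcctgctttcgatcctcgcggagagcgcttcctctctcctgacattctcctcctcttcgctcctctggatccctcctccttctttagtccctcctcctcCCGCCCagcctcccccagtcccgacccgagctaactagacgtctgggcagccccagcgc
Tgfa, chr6:86194972-86195271: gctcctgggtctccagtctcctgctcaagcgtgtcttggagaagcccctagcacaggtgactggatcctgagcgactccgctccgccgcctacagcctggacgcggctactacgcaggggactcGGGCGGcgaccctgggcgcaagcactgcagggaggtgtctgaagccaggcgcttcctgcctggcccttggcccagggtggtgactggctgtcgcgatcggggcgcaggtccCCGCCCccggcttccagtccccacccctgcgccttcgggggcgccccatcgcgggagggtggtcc
In the Areg window TGACGTCA began 61 bases before the start, GGGCGG 52 bases before it and TATAAA 31 bases before it, with no overlap between them, and a second GGGCGG began 37 bases after it. TGACGTCA was present in 1.79% of the 32851 promoter windows, TATAAA in 13.6% and GGGCGG in 35.7%. The Epgn window held TATAAA once, farther from the start than in Areg, at 86 bases before it, and no GGGCGG. The Egfr and Tgfa windows held no TATAAA, and they held GGGCGG on one or the other strand once and 2 times. The AP-1 motif TGANTCA, present in 7.81% of all windows, was in none of these windows. G and C made up 59.3% of the Areg, 47.3% of the Epgn, 62.3% of the Egfr and 70.7% of the Tgfa window, against a median of 52.7% over all windows.

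Among the receptors, Egfr stood above Erbb2 in all 11 samples. Egfr averaged 78.1 ± 13.8 TPM and Erbb2, which binds no known ligand and acts as a dimerization partner, 40.8 ± 6.91 TPM (SD, n = 11 samples). The ratio of Egfr to Erbb2 in TPM averaged 1.97 ± 0.39 in the tdTomato-positive (SD, n = 4) and 1.93 ± 0.36 in the tdTomato-negative group (SD, n = 7). In an exact sign-flip permutation test of the difference within samples the two-sided p was 0.000977, the smallest that 11 samples can give (adjusted p = 0.0026 over 16 pairs of genes).

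The ligands kept a partial order of levels. Over the 11 samples, Tgfa averaged 29.5 ± 10.6 TPM, Hbegf 19.4 ± 7.38 TPM, Ereg 16.5 ± 5.13 TPM, Areg 15.4 ± 4.54 TPM, Epgn 12.1 ± 6.52 TPM and Btc 6.25 ± 1.35 TPM (SD). Btc, betacellulin, which also binds ERBB4, was the lowest ligand in 9 samples and Epgn in the other 2. Of the 15 pairs of ligands and the receptor pair, 14 differed at an adjusted p under 0.05 in the exact sign-flip test. Between neighbours in this order, Hbegf and Ereg (adjusted p = 0.334) and Ereg and Areg (adjusted p = 0.716) did not differ beyond their spread. Epgn was above Btc in 9 of 11 samples, by 0.80 on the log2 scale (adjusted p = 0.0139, exact sign-flip test). Tgfa was above Hbegf in 9 of 11 samples, by 0.58 on the log2 scale (adjusted p = 0.0443), and Areg above Epgn in 8 of 11, by 0.45 (adjusted p = 0.0443, exact sign-flip tests). Of the 14 calls, 9 passed whichever sample was left out, those of Egfr over Erbb2, of Hbegf over Epgn, of Tgfa over Areg and Epgn, and of the other 5 ligands over Btc. The other 5 calls were Tgfa with Hbegf or Ereg, Areg with Hbegf or Epgn, and Ereg with Epgn. They were lost in some or most of these cases, with fewer samples in each test, and their direction did not turn. Leaving out each of the 11 samples in turn, the call of Ereg over Epgn was lost in 10 cases, those of Tgfa over Hbegf and of Hbegf over Areg in 9 each, that of Areg over Epgn in 8 and that of Tgfa over Ereg in 5. Without tdTomato-negative replicate 2, 4, 5 or 6, in each case 9 of the 16 pairs passed. In the tdTomato-positive samples alone Tgfa and Hbegf differed by 0.017 on the log2 scale, with Hbegf above.

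**Figure D1:**
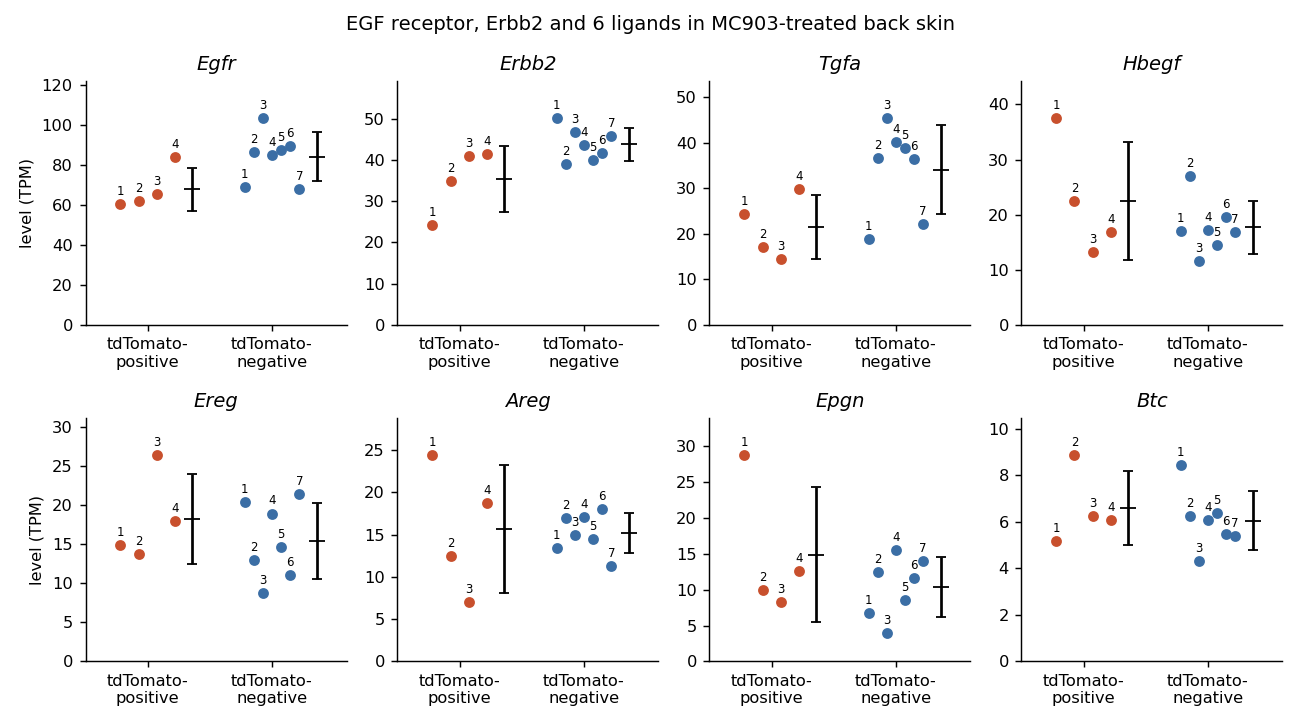
Level of each gene in TPM (vertical axis) for each sample, tdTomato-positive left and tdTomato-negative right. Numbers are replicates, and the bar beside each group is the mean ± SD (n = 4 and n = 7). The groups overlap for all 8 genes, and tdTomato-positive replicate 1 is the highest sample for Hbegf, Areg and Epgn and the lowest for Egfr and Erbb2.

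The leading ligand was not the same in all samples. The 6 ligands summed to 99.4 ± 26.3 TPM in the tdTomato-positive (SD, n = 4) and 98.8 ± 11.7 TPM in the tdTomato-negative group (SD, n = 7). Tgfa made up 21.6 ± 5.14% of that sum in the tdTomato-positive and 34.4 ± 9.7% in the tdTomato-negative group. It was the leading ligand in 1 of 4 tdTomato-positive samples and in 6 of 7 tdTomato-negative samples. In tdTomato-positive replicates 1 to 4 its share was 18.0%, 20.2%, 19.1% and 29.2%, and in tdTomato-negative replicates 1 to 7 it was 22.1%, 32.7%, 51.1%, 34.8%, 39.8%, 35.7% and 24.3%. The groups overlapped, since tdTomato-positive replicate 4 was above tdTomato-negative replicates 1 and 7.

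Where Tgfa did not lead, Hbegf led in tdTomato-positive replicates 1 and 2, and Ereg in tdTomato-positive replicate 3 and tdTomato-negative replicate 1. Hbegf made up 22.1 ± 5.94% in the tdTomato-positive and 17.8 ± 3.78% in the tdTomato-negative group. Ereg made up 19.96 ± 10.4% and ranged from 11.03% to 35.03% in the tdTomato-positive group, against 15.9 ± 5.88% in the tdTomato-negative group. Areg made up 15.1 ± 4.24% in the tdTomato-positive and 15.4 ± 1.69% in the tdTomato-negative group. Epgn made up 14.1 ± 4.86% in the tdTomato-positive and 10.4 ± 3.68% in the tdTomato-negative group. Btc made up 7.15 ± 2.88% in the tdTomato-positive and 6.22 ± 1.75% in the tdTomato-negative group (SD, n = 4 and n = 7). These shares were described and not tested.

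**Figure D2:**
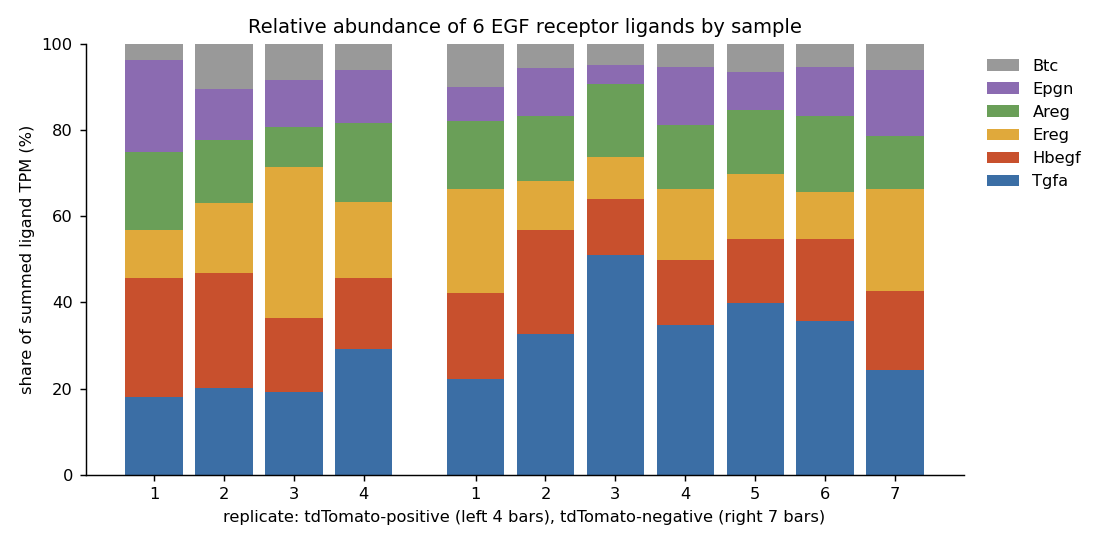
Share of each ligand in the summed TPM of the 6 ligands (percent, vertical axis), 1 bar per sample, with tdTomato-positive replicates left and tdTomato-negative replicates right. Tgfa is the largest part in 1 of 4 tdTomato-positive and 6 of 7 tdTomato-negative bars.

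The comparison of the groups asked whether these transcripts differ in MC903-treated skin between hosts of tdTomato-positive and of tdTomato-negative marrow cells. None of the 8 genes passed edgeR's quasi-likelihood test at a Benjamini-Hochberg adjusted p of 0.05 over all genes, against 0% (0 of 14588) of all tested genes. The smallest adjusted p of any gene was 0.248. At an unadjusted p under 0.05 stood Tgfa and Erbb2, both lower in the tdTomato-positive group, and 0 of the 8 were higher. This is 2 of 8 members against 9.73% of all genes lower and 7.05% higher at that level, 2448 genes or 16.8% in all. The median log2 fold change (tdTomato-positive minus tdTomato-negative) was 0.06 over the 8 genes and -0.01 over all tested genes. The direction of the median over the 8 genes was not stable, since it was -0.13 without tdTomato-positive replicate 1 and also below 0 with limma-voom, with sample quality weights, with the replicate block and with the epidermal score as a covariate. DESeq2 called none of the 8, and 78 of the 19738 genes to which it gave a p-value. It gave no adjusted p to 7179 genes, which it could therefore not call. Limma-voom with sample quality weights called 2 of the 8, Tgfa and Egfr, both lower. That setting called 2093 of all 14588 tested genes, 1111 of them lower. The groups overlapped for all 8 genes in CPM (counts scaled to library size), where 1.67% of all tested genes had groups that did not overlap (1.06% lower and 0.61% higher).

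Tgfa, transforming growth factor alpha, had 24.3, 17.1, 14.4 and 29.9 TPM in tdTomato-positive replicates 1 to 4. In the tdTomato-negative group it had 18.8 TPM at the lowest, 36.7 TPM at the median and 45.4 TPM at the highest. Between the groups Tgfa differed by -0.71 ± 0.28 on the log2 scale (SE), with a 95% interval of -1.33 to -0.09 and an adjusted p of 0.265 (edgeR). The groups overlapped only through tdTomato-negative replicates 1 and 7, with 18.8 and 22.2 TPM, while the other tdTomato-negative samples lay above every tdTomato-positive sample. Leaving out single samples gave -0.89 to -0.53, and Tgfa no longer had an unadjusted p under 0.05 without tdTomato-positive replicate 2 or 3 or tdTomato-negative replicate 3.

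Egfr had 60.2, 62.0, 65.3 and 83.6 TPM in tdTomato-positive replicates 1 to 4, and 67.8 TPM at the lowest, 86.1 TPM at the median and 103 TPM at the highest in the tdTomato-negative group. For Egfr the fold change was -0.33 ± 0.16 on the log2 scale (SE), with a 95% interval of -0.67 to 0.01 and an adjusted p of 0.307 (edgeR). Over all samples the Egfr levels fell into 2 ranges, 60.2 to 69.1 TPM in 5 samples and 83.6 to 103 TPM in the other 6. The 5 samples in the low range were tdTomato-positive replicates 1 to 3 and tdTomato-negative replicates 1 and 7. They were also the 5 samples with the lowest Tgfa, at 14.4 to 24.3 TPM against 29.9 to 45.4 TPM in the other 6, and the 5 with the lowest hair follicle scores. Because of these separate ranges no correlation over all samples is given. Within the 6 samples of the high range Pearson's r between Egfr and Tgfa was 0.83 (exact permutation p = 0.0792) and Spearman's rho 0.71 (exact permutation p = 0.136). Without the 2 samples farthest from the median Egfr, r was -0.32. So few samples then remain that this cannot show what the relation rests on.

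The 5 samples with the lowest hair follicle scores were thus those with the lowest Tgfa and Egfr. All 20 hair follicle markers had a log2 fold change below 0, with a median of -2.35. With the hair follicle score (the mean z-score of the 20 markers) as a covariate, the log2 fold change was -0.23 (adjusted p = 0.697) for Tgfa and -0.07 (adjusted p = 0.82) for Egfr (edgeR). With an epidermal score of basal and suprabasal keratinocyte markers as a covariate they were -0.29 and -0.10. The epidermal score was mostly low where the hair follicle score was high, so the 2 fits are not separate checks. In tdTomato-negative replicate 3 the hair follicle score was 1.15 and the epidermal score -0.97, and in replicate 7 they were -1.54 and 0.92. The part of hair follicle content in the difference between the groups was not tested beyond these fits.

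**Figure D3:**
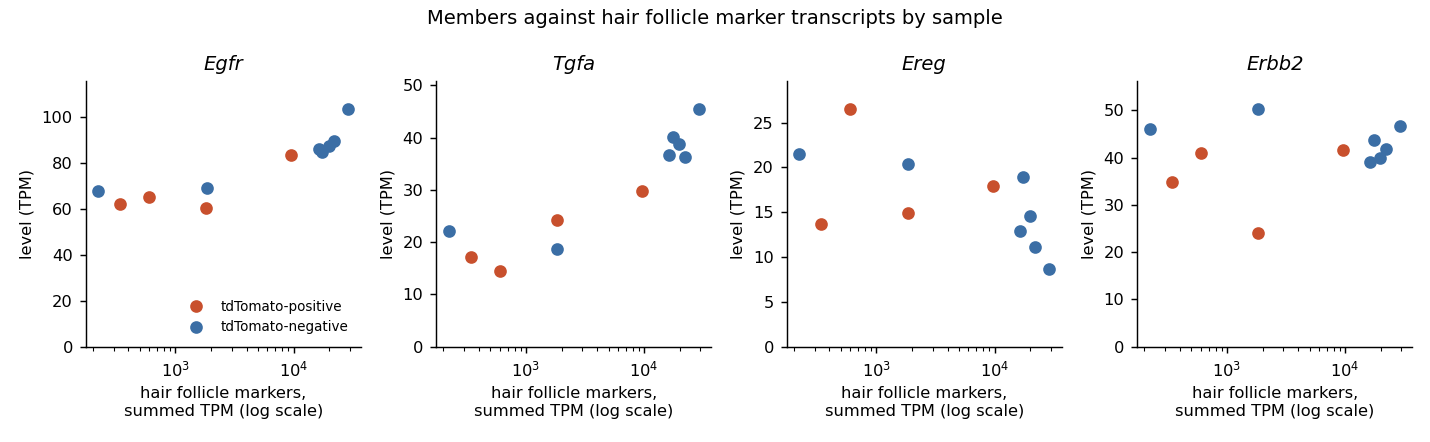
Level in TPM (vertical axis) of Egfr, Tgfa, Ereg and Erbb2 against the summed TPM of 20 hair follicle markers (horizontal log axis) for the 4 tdTomato-positive and 7 tdTomato-negative samples. The 5 samples with the fewest hair marker transcripts have Egfr between 60.2 and 69.1 TPM and Tgfa between 14.4 and 24.3 TPM.

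The difference in Erbb2 was as large with either covariate as without. Erbb2 had 24.1, 34.9, 41.1 and 41.6 TPM in tdTomato-positive replicates 1 to 4, and 39.0 TPM at the lowest, 43.7 TPM at the median and 50.2 TPM at the highest in the tdTomato-negative group. Replicates 1 and 2 of the tdTomato-positive group were below every tdTomato-negative sample, and replicates 3 and 4 lay among them. For Erbb2 the log2 fold change came to -0.34 ± 0.12 (SE), its 95% interval to -0.61 to -0.07 and its adjusted p to 0.254 (edgeR). With the hair follicle score as a covariate it was -0.33 (unadjusted p = 0.0321, adjusted p = 0.643) and with the epidermal score -0.35. Without tdTomato-positive replicate 1 it was -0.21. Erbb2 overlaps Mien1, which is on the opposite strand, and the strand setting of the counting is not given in the sources used here, so reads of the overlap cannot be assigned with certainty. Egfr, Ereg and Tgfa each overlap an antisense or unclassified gene of GENCODE in the same way.

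Hbegf, Areg and Epgn had their highest level in the same sample, tdTomato-positive replicate 1. Hbegf lies on chromosome 18 from 36504927 to 36515805 and encodes the heparin-binding ligand that keratinocytes and macrophages make. It had 37.5, 22.5, 13.1 and 16.9 TPM in tdTomato-positive replicates 1 to 4, and 11.5 to 27.0 TPM with a median of 17.0 TPM in the tdTomato-negative group. The log2 fold change of Hbegf was 0.34 ± 0.28 (SE; edgeR adjusted p = 0.539). Epgn, or epigen, had 28.8, 9.90, 8.24 and 12.7 TPM in tdTomato-positive replicates 1 to 4, and 3.91 to 15.6 TPM with a median of 11.59 TPM in the tdTomato-negative group. Epgn differed by 0.51 ± 0.39 on the log2 scale (SE; edgeR adjusted p = 0.499). Apart from tdTomato-positive replicate 1, all values of both genes in the tdTomato-positive group lay within the range of the tdTomato-negative group.

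Areg, amphiregulin, which is made by keratinocytes and by several leukocytes of type 2 responses, had 24.5, 12.4, 7.01 and 18.8 TPM in tdTomato-positive replicates 1 to 4, and 11.3 to 18.0 TPM with a median of 15 TPM in the tdTomato-negative group. The tdTomato-positive samples thus held both the highest and the lowest value of all 11. Areg differed by 0.01 ± 0.28 on the log2 scale (SE), with a 95% interval of -0.60 to 0.63 (edgeR, adjusted p = 0.987). Areg rested on 41 to 126 expected counts per sample, the lowest count of the 8 genes apart from Epgn at 30 and more.

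Without tdTomato-positive replicate 1, the log2 fold changes were -0.043 for Hbegf, -0.055 for Epgn and -0.31 for Areg. The same sample held the highest summed level of 3 marker lists of activated epidermis and myeloid cells. Activated epidermis markers (Krt6a, Krt6b, Krt16 and Krt17) summed to 18200 TPM there, against 8905 to 14024 TPM in the other tdTomato-positive and 4402 to 17726 TPM in the tdTomato-negative samples. Macrophage markers summed to 2074 TPM, against 777 to 1416 TPM in the other tdTomato-positive and 675 to 1162 TPM in the tdTomato-negative samples. Neutrophil markers summed to 2741 TPM, against 270 to 1587 TPM in the other tdTomato-positive and 312 to 2571 TPM in the tdTomato-negative samples. None of the 4, 8 and 6 genes of these lists was at 0 in all samples, and their part in the ligand levels was not tested.

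Ereg and Btc showed no such peak in replicate 1. Ereg, epiregulin, a ligand of EGFR and ERBB4, had 14.9, 13.7, 26.5 and 17.9 TPM in tdTomato-positive replicates 1 to 4, and 8.71 to 21.4 TPM with a median of 14.6 TPM in the tdTomato-negative group. It was highest in tdTomato-positive replicate 3 and tdTomato-negative replicates 7 and 1, and lowest in tdTomato-negative replicate 3, which had the most hair marker transcripts. For Ereg the log2 difference was 0.23 ± 0.22 (SE, edgeR adjusted p = 0.609), and 0.02 with the hair follicle score and -0.064 with the epidermal score as a covariate. Without tdTomato-positive replicate 3, the highest sample, it was 0.024, and without tdTomato-negative replicate 3, the lowest, 0.13. Btc had 5.18, 8.88, 6.25 and 6.10 TPM in tdTomato-positive replicates 1 to 4, and 4.30 to 8.46 TPM with a median of 6.07 TPM in the tdTomato-negative group. For Btc the log2 difference was 0.11 ± 0.18 (SE, edgeR adjusted p = 0.773), with a 95% interval of -0.28 to 0.50.

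**Figure D4:**
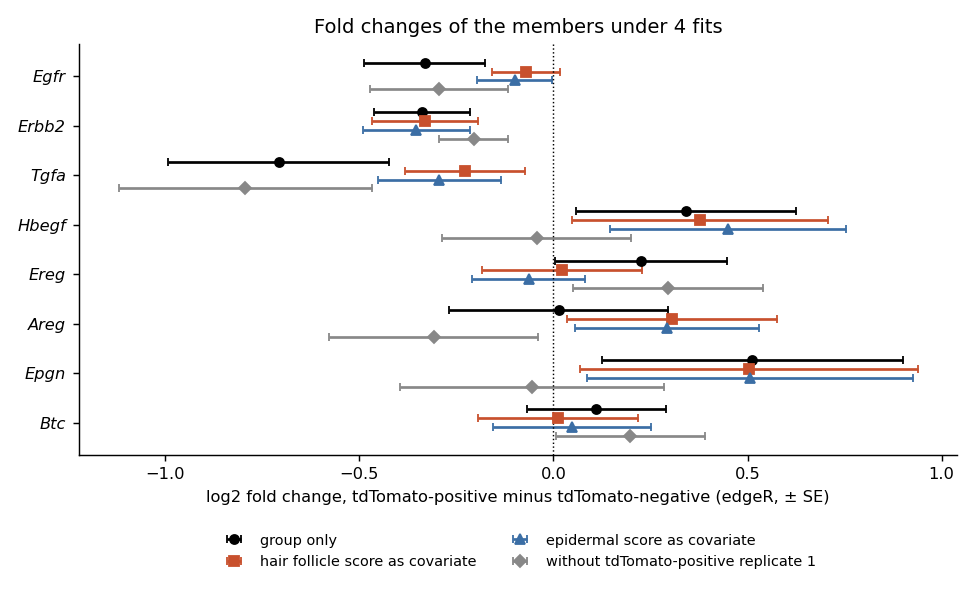
Log2 fold change of each gene, tdTomato-positive minus tdTomato-negative, ± SE (horizontal axis), from edgeR with group only, with a hair follicle or an epidermal score as a covariate, and without tdTomato-positive replicate 1. Egfr and Tgfa lie nearer to 0 with either covariate, Erbb2 does not, and Hbegf, Areg and Epgn are below 0 without replicate 1.

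Genes whose pattern over the 11 samples was most like each member were found by the root mean square difference between log2 CPM values centred on each gene's mean. Nearest to Egfr, whose own SD was 0.29, were Aplp2, an amyloid precursor-like protein, and Usp6nl, a GTPase-activating protein for RAB proteins, at a difference of 0.05 each. Tgfa (SD 0.57) had Lurap1l and the zinc transporter Slc39a6 at 0.13 and 0.14. Erbb2 (SD 0.26) had the cell polarity gene Llgl2 at 0.08 and the cadherin Celsr2 at 0.09. Ereg (SD 0.38) had Mapt, which encodes tau, at 0.10 and the nuclear receptor Rora at 0.16.

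Nearest to Hbegf (SD 0.47) were Tlr4, the lipopolysaccharide receptor, at 0.13 and Pla2g7, which inactivates platelet-activating factor, at 0.18. Areg (SD 0.46) had Lrat, the retinol-esterifying enzyme, at 0.17 and Depdc7 at 0.18. Btc (SD 0.26) had the junction protein gene Cxadr at 0.13 and the semaphorin Sema5a at 0.15. For Epgn (SD 0.67) the nearest genes, the lectin Clec2e and the interferon-induced Ifit1, were still 0.30 and 0.32 away. These genes were picked as the nearest of all tested genes in the same samples, so the differences are a description.

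The other receptors and ligands of the family differed widely in level. Erbb3, the kinase-impaired neuregulin receptor, had 58.8 ± 9.74 TPM in the tdTomato-positive (SD, n = 4) and 63.1 ± 4.87 TPM in the tdTomato-negative group (SD, n = 7). Erbb4 had 0 to 5 expected counts per sample and was not tested, and Nrg3 had 0 in all 11 samples, where a count of 0 allows up to 3 counts per sample. Egf itself averaged less than each of the 6 ligands above, with 2.95 ± 0.80 TPM in the tdTomato-positive and 2.24 ± 1.32 TPM in the tdTomato-negative group. Nrg1 averaged 1.94 ± 1.58 TPM in the tdTomato-positive and 2.07 ± 0.53 TPM in the tdTomato-negative group, and Nrg2 1.84 ± 0.85 TPM in the tdTomato-positive and 2.91 ± 1.39 TPM in the tdTomato-negative group, with log2 fold changes of -0.15 ± 0.45 for Nrg1 and -0.72 ± 0.40 for Nrg2 (SE). With the hair follicle score as a covariate Nrg2 was at -0.09. Of the 5 tested genes of this list, 0 passed the adjusted threshold in either direction and 0 had an unadjusted p under 0.05, with edgeR. At that unadjusted level stood 16.8% of all tested genes.

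For ligand shedding, 0 of 9 tested genes passed in either direction and 2 had an unadjusted p under 0.05, both lower in the tdTomato-positive group. Of all tested genes 9.73% were lower at that level. Frmd8 and Rhbdf2, which encode parts of the iRhom complex that ADAM17 needs, had log2 fold changes of -0.25 ± 0.10 and -0.27 ± 0.12 (SE, edgeR adjusted p = 0.26 and 0.286). With the hair follicle score as a covariate Frmd8 was at -0.15 and Rhbdf2 at -0.21. The list had a median log2 fold change of 0.15, which was 0.068 without tdTomato-positive replicate 1, 0.088 without tdTomato-negative replicate 3, 0.046 with the hair follicle score and 0.077 with the epidermal score as a covariate.

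Among receptor inhibitors and turnover genes, 0 of 15 passed in either direction, with a median log2 fold change of 0.06. At an unadjusted p under 0.05, 2 were higher and 1 lower, against 7.05% and 9.73% of all tested genes. Dcn, the matrix proteoglycan decorin that can bind EGFR and that is also in the fibroblast marker list, had 769, 713, 481 and 615 TPM in tdTomato-positive replicates 1 to 4 and 361 to 592 TPM in the tdTomato-negative group. The log2 difference of Dcn was 0.53 ± 0.15 (SE, edgeR adjusted p = 0.248). Of the 8 fibroblast markers all lay above 0, and their median log2 fold change was 0.36; their part in the value of Dcn was not tested. Rnf41, a ubiquitin ligase for ERBB3, had a log2 fold change of -0.35 ± 0.12 (SE, edgeR adjusted p = 0.248) and of -0.20 with the hair follicle score as a covariate.

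In the signaling cascade 0 of 21 genes passed in either direction, with a median log2 fold change of -0.04. Ptpn11, the phosphatase SHP2, and Hras were lower at an unadjusted p under 0.05, as were 9.73% of all tested genes. Their log2 fold changes were -0.27 ± 0.11 and -0.33 ± 0.14 (SE, edgeR adjusted p = 0.265 and 0.288). With the hair follicle score as a covariate these were -0.10 for Ptpn11 and -0.13 for Hras, and neither had an unadjusted p under 0.05. Of 13 ERK-responsive genes 0 passed in either direction, 10 had a log2 fold change below 0, and the median was -0.19. With the hair follicle score as a covariate this median was 0.06, and it was -0.45 without tdTomato-positive replicate 1, -0.31 without replicate 4 and -0.12 without replicate 2 of that group. Dusp4, an ERK phosphatase, had 6.16 ± 0.82 TPM in the tdTomato-positive (SD, n = 4) and 8.35 ± 2.15 TPM in the tdTomato-negative group (SD, n = 7), with a log2 fold change of -0.47 ± 0.22 (SE, edgeR adjusted p = 0.296) and -0.11 with the hair follicle score as a covariate. Plaur, the urokinase receptor, had 57.1, 20.7, 4.84 and 9.94 TPM in tdTomato-positive replicates 1 to 4 and 5.59 to 23.3 TPM in the tdTomato-negative group. The log2 difference of Plaur was 1.125 ± 0.57 (SE, edgeR adjusted p = 0.333), and 0.13 without tdTomato-positive replicate 1.

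**Figure D5:**
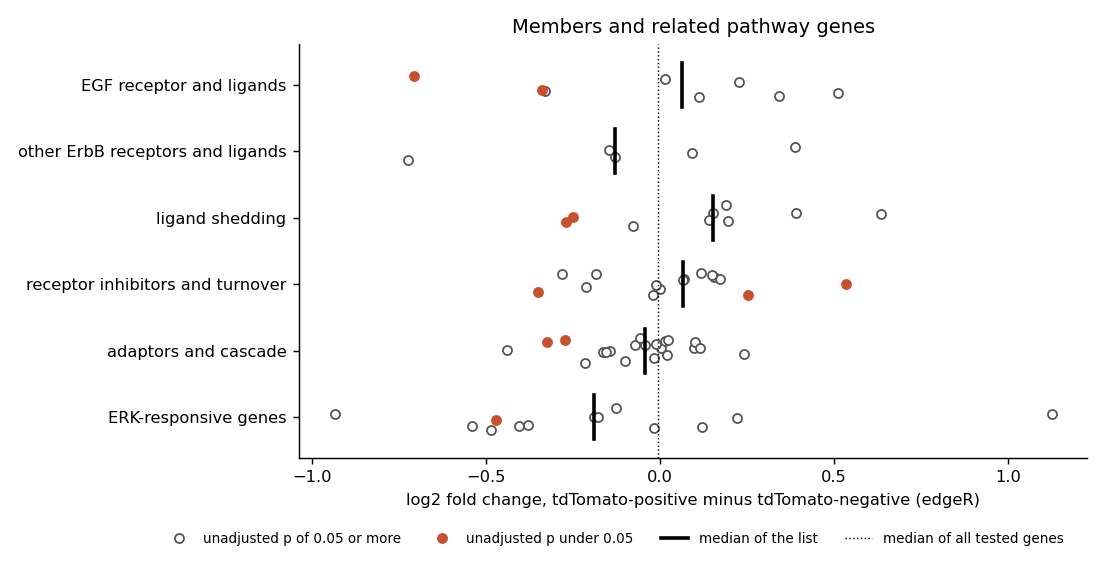
Log2 fold change, tdTomato-positive minus tdTomato-negative (horizontal axis, edgeR), of the 8 members and of tested genes in 5 related lists, 1 point per gene, with filled points for an unadjusted p under 0.05. Black bars are list medians, which lie between -0.19 and 0.15, and the dotted line is the median of all tested genes.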

How the data were processed

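Per the submitters' processing notes, reads were processed with bcl2fastq, Trim Galore and RSEM on GRCm38, and per the labels' protocols libraries were made from rRNA-depleted total RNA. No version, aligner or strandedness is given in these notes. Expected counts, as deposited, are RSEM's estimated read counts per gene, not normalized. The TPM deposited by the authors are scaled to effective length.

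Expected counts were rounded and tested with edgeR 4.0.16 (R 4.3.3; filterByExpr with a minimum count of 10 and a minimum total of 15, TMM factors, glmQLFit in legacy mode, glmQLFTest), with group as the only term, over all 14588 genes passing the filter, with Benjamini-Hochberg adjustment. Each standard error was obtained by dividing the size of the log2 fold change by the root of the F statistic. CPM used TMM-scaled totals, and log2 CPM a prior count of 2. Levels of different genes were compared within samples on log2(TPM + 0.1), with exact sign-flip tests adjusted over 16 pairs. The text names all members, Erbb3, Erbb4, Egf and Nrg1, the 2 genes of smallest p in each pathway list and the 2 genes most like each member. Members and lists were chosen with earlier results of these data known. Nrg3, Mien1 and single markers were named after their values were seen, and correlations were added then. The tests were tried on simulated counts. Alternatives used DESeq2 1.42.0 and limma 3.58.1. No library copied another (lowest chi-square per degree of freedom 3.52 over 55 pairs). Counting floors cover counting error only.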

Additional observations from a re-analysis of the deposited data

Results flagged for a closer look

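Of 32 sets of values examined (the TPM of the 8 genes, the shares of the 6 ligands, their sum and the ratio of Egfr to Erbb2, in each group), 2 held a sample far from the rest, where chance gives about 1 in 20. Epgn made up 21.3% of the summed ligand TPM in tdTomato-positive replicate 1 and 10.9% to 12.4% in the other 3 tdTomato-positive samples. Btc made up 9.98% in tdTomato-negative replicate 1 and 4.84% to 6.56% in the other 6 tdTomato-negative samples.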

How the results depend on the processing

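Of the 13 alternatives that kept all samples, 11 called no gene, with 1130 to 2764 genes at an unadjusted p under 0.05. DESeq2 called 78 genes and limma-voom with quality weights 2093. Leaving out each sample in turn gave 0 to 3 calls, with 1 call without tdTomato-negative replicate 4 and 3 without replicate 7. With the replicate block the edgeR test called 0 genes, the log2 fold change of Areg was -0.14, and no member passed. Same-numbered samples did not deviate together in all 4 pairs, with correlations of -0.04, -0.14, -0.05 and 0.34. No label says that the numbers pair samples, and 4 such correlations cannot decide whether they do.

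Egfr, Erbb2 and Tgfa were below 0 in all 24 alternatives run. Areg was -0.16 with limma-voom, -0.22 with quality weights and -0.072 with limma-trend on log2(TPM + 1). Leaving out single samples gave -0.31 to 0.28 for Areg, 0.024 to 0.33 for Ereg, -0.043 to 0.55 for Hbegf, -0.080 to 0.20 for Btc, -0.055 to 0.74 for Epgn and -0.66 to 0.20 for Nrg1. Ereg was -0.064 with the epidermal score as a covariate, and Nrg1 0.12 with the hair and 0.038 with the epidermal score. The causes were not tested.

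Among the 16 pairs of levels, 9 passed in the 7 tdTomato-negative samples alone and 9 to 13 when single samples were left out, with fewer samples in each test. In the 4 tdTomato-positive samples the smallest possible p is 0.125, so no count is given. There Hbegf exceeded Tgfa by 0.017 on the log2 scale. Areg exceeded Ereg by 0.027 in the tdTomato-negative samples alone and lay between -0.19 and 0.082 relative to it when single samples were left out. By expected counts, with no division by length, Tgfa made up 42.4%, Areg 5.42% and Epgn 6.40% of the ligand sum. Counts of 30 to 226 for Epgn and 41 to 126 for Areg limit the precision of these genes.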

Other observations

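Hbegf and Epgn, which had their highest level in the same sample, had a Pearson's r of 0.77 over the 11 samples on the log2 CPM scale (permutation p = 0.0053, adjusted p = 0.0549 over 28 pairs of members) and a Spearman's rho of 0.68 (permutation p = 0.0251, adjusted p = 0.234). The relation did not pass the adjustment. Pearson's r was 0.55 without the 2 samples farthest from the median Hbegf, tdTomato-positive replicate 1 and tdTomato-negative replicate 2, and 0.62 within the 7 tdTomato-negative samples (exact permutation p = 0.144). Erbb2 with Epgn and Erbb2 with Hbegf had an r of -0.78 each and did not pass it either (permutation test, adjusted p = 0.0549 for both). In the same order, r was -0.16 and -0.26 without the 2 samples farthest from the median Erbb2, and -0.55 and -0.46 without tdTomato-positive replicate 1. Within the 7 tdTomato-negative samples r was -0.83 and -0.67 (exact permutation test, adjusted p = 0.202 and 0.353). Pairs that hold Egfr are not given here, because its levels fell into separate ranges.

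Egfr is the member whose deposited length differed between samples. Its 2 annotated transcripts were weighted by RSEM to a length of 5258 to 5645 bases, while each of the other 7 members had 1 transcript and a fixed length. The TPM of Egfr therefore depend on that weighting, and its counts do not.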
